A study of Mus musculus with 12 samples.

Results

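The guanylate-binding protein (Gbp) genes described here are 10 mouse genes, each measured by 1 probe set among 23521 probe sets that carry exactly 1 gene symbol (33793 probe sets in all). They were chosen by gene symbol, and the choice was made with their differences between the 4 groups of these arrays already known, so the changes below are a description of the family and support nothing beyond it. The arrays measured total RNA of CD8+ T cells from spleens of C57BL/6 mice, enriched by a kit that removes the other cell types and kept for 6 h under 1 of 4 conditions, with 3 arrays each. The groups were anti-CD3 with IFN-4a, anti-CD3 alone, PBS with IFN-4a, and PBS alone. Anti-CD3 is an antibody that engages the T cell receptor complex, PBS (phosphate-buffered saline) is the mock treatment, and IFN-4a is the type I interferon used, named here as in the labels. All groups share the same strain, tissue and isolation. The labels give no age, number of animals or pooling, so the arrays of a group may be technical repeats and the spread between them may be smaller than that between animals.

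Guanylate-binding proteins are large GTPases of the dynamin superfamily that interferons induce in many cell types. They assemble on the vacuoles of intracellular parasites and on the surface of bacteria in the cytosol, with the help of immunity-related GTPases and of the conjugation machinery of autophagy, and they promote the activation of inflammasomes. Their genes respond to interferon gamma, in part through the transcription factor IRF1, and to type I interferon. In the RefSeq annotation Gbp5, Gbp7, Gbp3 and Gbp2b neighbour each other on chromosome 3, and Gbp8, Gbp9, Gbp4, Gbp10, Gbp6 and Gbp11 neighbour each other on chromosome 5. All are protein-coding there except Gbp11, a transcribed pseudogene. Members of a cluster are close paralogs, so probes of 1 gene may also bind RNA of another.

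Promoter sequences are shown for the members that the RefSeq table covers, because the interferon-stimulated response element (ISRE) is a site through which interferon is known to act on genes of this family. The table (build GRCm38.p6) held a window from 250 bases before to 50 bases after the start of transcription for 4 of the 10 members, all on the plus strand, and it held 5 windows in all because Gbp3 had a pair. The capitals mark matches to the ISRE core GAAANNGAAA, read here on the opposite strand.
Gbp5, chr3:142496744-142496803: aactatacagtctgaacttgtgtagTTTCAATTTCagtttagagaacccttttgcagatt
Gbp7, chr3:142530258-142530317: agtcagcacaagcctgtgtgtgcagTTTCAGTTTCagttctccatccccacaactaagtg
Gbp3, chr3:142559974-142560039: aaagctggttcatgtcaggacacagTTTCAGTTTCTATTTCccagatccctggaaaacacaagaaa
Gbp2b, chr3:142594685-142594744: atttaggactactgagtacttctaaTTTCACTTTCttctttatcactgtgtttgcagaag
The match began 165 bases before the start in Gbp5, 53 in Gbp7 and 137 in Gbp2b, and Gbp3 had overlapping matches at 45 and 39 bases in the window shown and none in its other window. On both strands, 3.44% of all 32851 promoter windows held this core. The AP-1 letters TGANTCA were found in the Gbp2b window alone, 9 bases after the start (7.81% of all windows). A match is a description of letters and not a site.

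The deposited values were read as log2 (their base is not stated), with each probe set centred at 0 on its median over the 12 arrays, so levels of different genes cannot be compared. A change is a difference of group means, SE is its standard error, and a gene is said to have risen or fallen where the adjusted p of limma over 23521 probe sets was under 0.05. No p-value is printed for a member, because the members were chosen with these groups known.

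In resting cells, meaning cells given PBS, IFN-4a raised 9 of the 10 Gbp genes, against 4.17% of all probe sets raised. The median log2 change of the 10 genes was 1.93, and that of all probe sets was -0.01. Anti-CD3 without IFN-4a also raised 9 of 10, where 13.9% of all probe sets rose, with a median of 2.12 against -0.04. Both stimuli together raised 9 of 10 over PBS, where 14.1% of all probe sets rose, with a median of 2.08 against -0.02. These 3 comparisons share the PBS arrays. The gene that passed in none of them was Gbp2b. In bulk RNA, more cells carrying a transcript and more transcript per cell cannot be told apart.

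**Figure D1:**
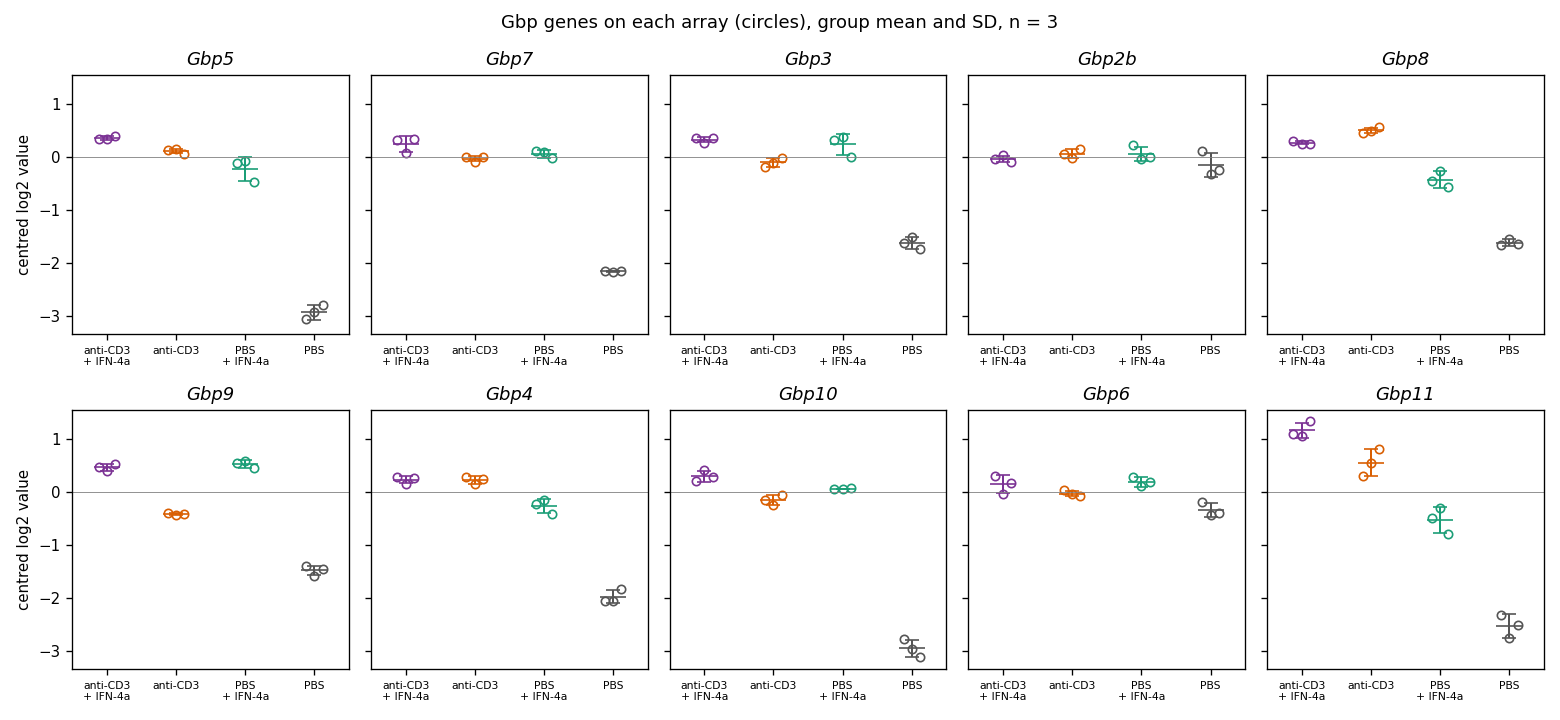
Centred log2 value (vertical axis) of each of the 10 Gbp genes on each of the 12 arrays (circles), by group, with the group mean and SD (n = 3). In 9 panels the PBS arrays lie below all arrays of the other groups, from -0.19 in Gbp6 down to -3.11 in Gbp10, while the groups of Gbp2b overlap. The share of all probe sets separated in this way was not counted.

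Gbp10 and Gbp5 rose several-fold with either stimulus. Gbp10, which was reported to protect mouse macrophages against mycobacteria, stood at 0.20, 0.41 and 0.28 with anti-CD3 and IFN-4a, at -0.15, -0.24 and -0.06 with anti-CD3, at 0.06, 0.06 and 0.07 in PBS with IFN-4a, and at -2.78, -2.95 and -3.11 in PBS. The PBS arrays lay far below all the others. Against PBS, Gbp10 rose 8.04-fold with IFN-4a (log2 3.01, SE 0.08), 6.96-fold with anti-CD3 (log2 2.80, SE 0.08) and 9.49-fold with both (log2 3.25, SE 0.08).

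Gbp5, which promotes assembly of the NLRP3 inflammasome, stood at 0.34, 0.35 and 0.40 with anti-CD3 and IFN-4a, at 0.13, 0.15 and 0.07 with anti-CD3, at -0.11, -0.07 and -0.47 in PBS with IFN-4a, and at -3.06, -2.93 and -2.78 in PBS. The 4 groups did not overlap and stood in that order. Gbp5 rose 6.52-fold with IFN-4a (log2 2.70, SE 0.10), 8.22-fold with anti-CD3 (log2 3.04) and 9.77-fold with both (log2 3.29).

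Gbp7, which was tied to the assembly of the phagocyte NADPH oxidase in mouse macrophages, lay between 0.08 and 0.35 with anti-CD3 and IFN-4a, between -0.08 and 0.0012 with anti-CD3, between -0.02 and 0.12 in PBS with IFN-4a, and between -2.17 and -2.14 in PBS. Arrays of the 3 treated groups overlapped in part. Its log2 change from PBS was 2.22 with IFN-4a and 2.12 with anti-CD3 (SE 0.07 each), and 2.40 with both.

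With IFN-4a alone, Gbp4 and Gbp3 had smaller log2 changes than Gbp7, and with anti-CD3 alone the change of Gbp4 was close to that of Gbp7. Gbp4 lay between 0.15 and 0.28 in both anti-CD3 groups, with and without IFN-4a, between -0.41 and -0.15 in PBS with IFN-4a, and between -2.05 and -1.83 in PBS. It rose 3.29-fold with IFN-4a (log2 1.72, SE 0.08) and 4.61-fold with anti-CD3 (log2 2.21), and its values with anti-CD3 were nearly the same whether or not IFN-4a was present. Gbp3, whose protein is recruited to Toxoplasma vacuoles, lay between 0.28 and 0.36 with anti-CD3 and IFN-4a, between -0.18 and -0.0061 with anti-CD3, between 0.0061 and 0.38 in PBS with IFN-4a, and between -1.73 and -1.51 in PBS. It rose 3.63-fold with IFN-4a (log2 1.86, SE 0.09) and 2.87-fold with anti-CD3 (log2 1.52).

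**Figure D2:**
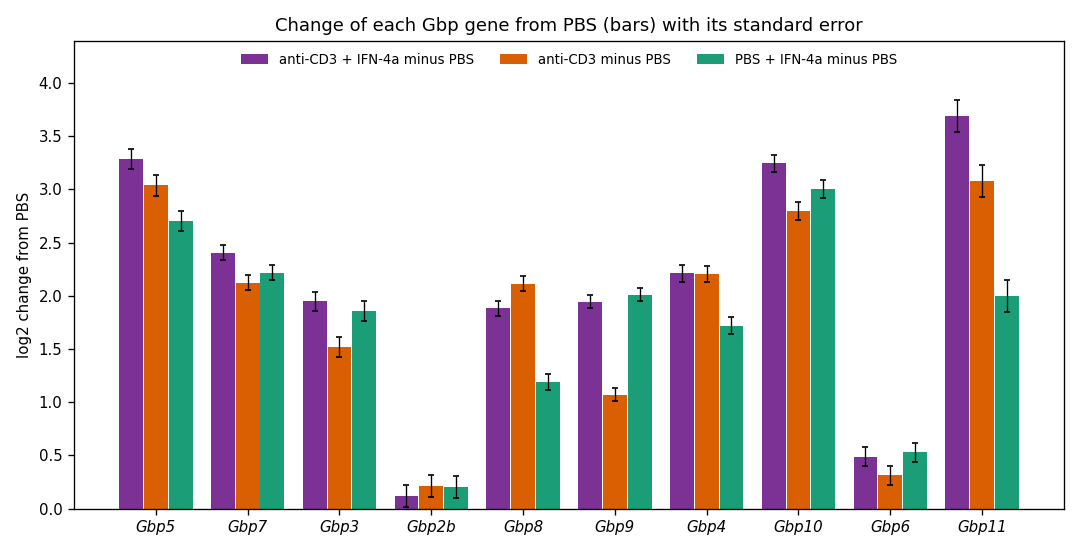
Log2 change from PBS (bars, vertical axis) of each Gbp gene with anti-CD3 and IFN-4a, with anti-CD3 alone and with IFN-4a alone, with its standard error from the fit over 12 arrays. Gbp11 has the tallest bar with both stimuli (3.69), and the bars of Gbp2b lie between 0.11 and 0.21.

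Paralogs differed in which stimulus gave the higher value. Set directly against each other, anti-CD3 alone gave higher values than IFN-4a alone for 4 of the 10 genes, Gbp11, Gbp8, Gbp4 and Gbp5 (14.7% of all probe sets were higher), and lower values for Gbp9 and Gbp3 (15.8% of all probe sets were lower). Genes of both chromosomes stood on either side.

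Gbp9 was the member most tilted to IFN-4a. It stood at 0.47, 0.40 and 0.53 with anti-CD3 and IFN-4a, at -0.40, -0.43 and -0.41 with anti-CD3, at 0.55, 0.59 and 0.45 in PBS with IFN-4a, and at -1.40, -1.58 and -1.45 in PBS. The arrays with IFN-4a lay together, whether or not anti-CD3 was present, and the anti-CD3 arrays lay between them and PBS. Gbp9 rose 4.03-fold with IFN-4a (log2 2.01, SE 0.06) and 2.10-fold with anti-CD3 (log2 1.07, SE 0.06), and the log2 difference of anti-CD3 from PBS with IFN-4a was -0.94 (95% interval -1.08 to -0.81). For Gbp3 that difference was -0.34 (-0.54 to -0.14), and its call ended without the first PBS with IFN-4a array (log2 -0.29) and without the second (log2 -0.27).

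Gbp8 had the opposite order. It stood at 0.31, 0.25 and 0.26 with anti-CD3 and IFN-4a, at 0.46, 0.49 and 0.56 with anti-CD3, at -0.44, -0.25 and -0.57 in PBS with IFN-4a, and at -1.65, -1.54 and -1.63 in PBS. The groups did not overlap, and anti-CD3 alone gave the highest values. Gbp8 rose 4.34-fold with anti-CD3 (log2 2.12, SE 0.07) and 2.28-fold with IFN-4a (log2 1.19, SE 0.07), a log2 difference of 0.93 (95% interval 0.77 to 1.09).

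Gbp11, the transcribed pseudogene, stood at 1.10, 1.06 and 1.33 with anti-CD3 and IFN-4a, at 0.30, 0.55 and 0.81 with anti-CD3, at -0.49, -0.30 and -0.79 in PBS with IFN-4a, and at -2.32, -2.75 and -2.50 in PBS. Its groups did not overlap either, and the arrays with both stimuli were the highest. It rose 12.9-fold with both stimuli (log2 3.69, SE 0.15), 8.45-fold with anti-CD3 (log2 3.08) and 4.0-fold with IFN-4a (log2 2.0). Anti-CD3 exceeded IFN-4a by 1.08 (95% interval 0.75 to 1.40).

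For Gbp4 anti-CD3 exceeded IFN-4a by 0.49 (0.31 to 0.66) and for Gbp5 by 0.34 (0.13 to 0.54). The Gbp5 call ended without the second anti-CD3 array (log2 0.32) and when the third PBS with IFN-4a array, on which Gbp5 stood at -0.47, was left out (log2 0.21). Gbp7, Gbp10, Gbp6 and Gbp2b did not pass, with differences of -0.09 (-0.25 to 0.06), -0.21 (-0.39 to -0.03), -0.22 (-0.41 to -0.03) and 0.0079 (-0.21 to 0.23). Gbp10 passed without the first PBS array or the third (log2 -0.21 each), and Gbp6 without the second array with both stimuli (log2 -0.22).

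**Figure D3:**
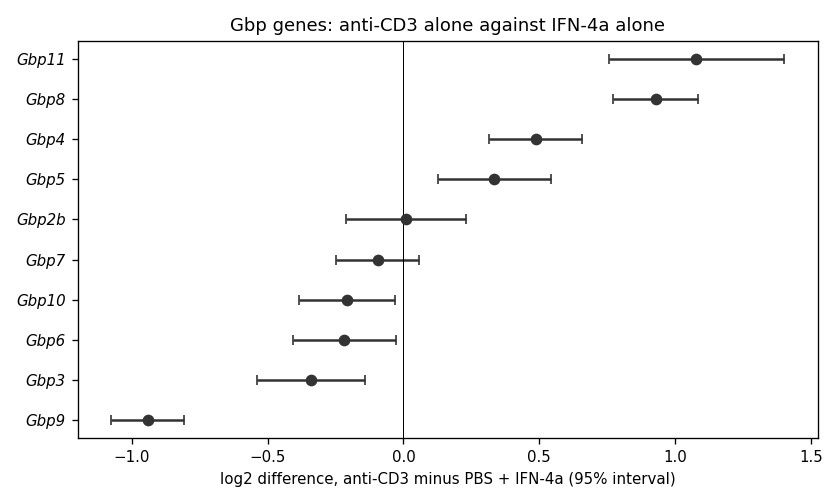
Log2 difference of anti-CD3 alone minus PBS with IFN-4a (horizontal axis) for each Gbp gene, with its 95% interval from the fit over 12 arrays. Gbp11 (1.08) and Gbp8 (0.93) lie farthest to the right of 0 and Gbp9 (-0.94) farthest to the left.

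Gbp2b passed in none of the 3 comparisons with PBS, and Gbp6 rose in all 3 by less than the other members that rose. Gbp2b, formerly Gbp1, stood at -0.03, 0.03 and -0.08 with anti-CD3 and IFN-4a, at 0.06, -0.0060 and 0.15 with anti-CD3, at 0.22, -0.04 and 0.0060 in PBS with IFN-4a, and at 0.12, -0.31 and -0.24 in PBS. The arrays of every treated group overlapped with those of PBS. Its log2 change was 0.20 with IFN-4a (95% interval -0.02 to 0.43), 0.21 with anti-CD3 (-0.0094 to 0.43) and 0.11 with both (-0.11 to 0.34), none past the threshold. These 3 calls depended on the first PBS array, which stood at 0.12. Without it the changes were 0.34 with IFN-4a, 0.34 with anti-CD3 and 0.25 with both, and each passed.

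Gbp6, reported beside Gbp10 to protect mouse macrophages against mycobacteria, stood at 0.30, -0.03 and 0.17 with anti-CD3 and IFN-4a, at 0.03, -0.04 and -0.08 with anti-CD3, at 0.28, 0.11 and 0.18 in PBS with IFN-4a, and at -0.19, -0.43 and -0.40 in PBS. The PBS arrays were the lowest, by a small margin. Gbp6 rose 1.44-fold with IFN-4a (log2 0.53, SE 0.09), 1.24-fold with anti-CD3 (log2 0.31, SE 0.09) and 1.40-fold with both (log2 0.49). The anti-CD3 call ended without the first anti-CD3 array (log2 0.28), the second PBS array (log2 0.27) or the third PBS array (log2 0.28).

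Signal strength also differed between members. Storage in single precision leaves steps of a known width in the decimals of centred values where the numbers stood at 8 or above. A value off these steps shows that it or its row's median stood below 8 before centring. Smaller numbers are stored in finer steps and can also fall on these by chance. A value on the steps therefore does not by itself show 8 or above. All readable values of the 9 treated arrays fell on the steps for Gbp5, Gbp7, Gbp8, Gbp9, Gbp4 and Gbp10 (9 readable each) and for Gbp3 (8 readable). In Gbp2b only 6 of 9 treated arrays and 1 of 3 PBS arrays fell on those steps, and in Gbp6 only 5 of 9 and 1 of 3, so their signal or its median lay below 8. Gbp11 had 6 of 7 readable treated arrays and 2 of 3 PBS arrays on the steps. In PBS, 0 of 2 readable arrays of Gbp5 and 1 of 3 of Gbp3 were on them, and all readable PBS arrays of Gbp7, Gbp8, Gbp9, Gbp4 and Gbp10 were. With only 2 or 3 readable PBS arrays per gene, the latter could also arise by chance. A signal below 8 on some arrays was thus shared by Gbp5, Gbp3 and Gbp11, which rose several-fold. Over all probe sets with 1 symbol, 22.1% had every readable array on the steps. The part of weak signal in the small changes of Gbp2b and Gbp6 was not tested.

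The next comparison asked what IFN-4a added once cells were stimulated through CD3. It raised 4 of the 10 Gbp genes, where 1.97% of all probe sets rose. Gbp9 rose by 0.88 (SE 0.06, 1.83-fold), Gbp11 by 0.61 (SE 0.15), Gbp10 by 0.45 (SE 0.08) and Gbp3 by 0.43 (SE 0.09). Gbp7 stood at 0.28 (95% interval 0.13 to 0.43), Gbp5 at 0.25 (0.04 to 0.46), Gbp6 at 0.17 (-0.02 to 0.36), Gbp4 at 0.0070 (-0.17 to 0.18), Gbp2b at -0.10 (-0.32 to 0.12) and Gbp8 at -0.23 (-0.39 to -0.08), none past the threshold. The Gbp8 arrays with both stimuli nonetheless all lay below those with anti-CD3 alone.

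That count rested on single arrays. It was 2 without the first or the third array with both stimuli, or without the first or the second anti-CD3 array, where Gbp3 (log2 0.39 to 0.42) and Gbp11 (0.48 to 0.64) lost their calls. Gbp11 also lost its call without the second array with both stimuli (log2 0.66), the first PBS with IFN-4a array or the third PBS array (log2 0.61 each). Gbp7 passed without the second array with both stimuli, its low array at 0.08 (log2 0.36), and when the third PBS with IFN-4a array was left out (log2 0.28).

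Read the other way, anti-CD3 in the presence of IFN-4a raised 5 of 10 Gbp genes over IFN-4a alone, where 12.8% of all probe sets rose. Gbp11 rose by 1.69 (SE 0.15), Gbp8 by 0.69 (SE 0.07), Gbp5 by 0.58 (SE 0.10), Gbp4 by 0.49 (SE 0.08) and Gbp10 by 0.24 (SE 0.08). The Gbp10 call ended when any of 7 single arrays was left out, with values from 0.18 without the second array with both stimuli to 0.25 without the third. Gbp7 at 0.19 (0.03 to 0.34), Gbp3 at 0.09 (-0.11 to 0.29), Gbp6 at -0.04 (-0.23 to 0.15), Gbp9 at -0.07 (-0.20 to 0.07) and Gbp2b at -0.09 (-0.31 to 0.13) did not pass. Gbp7 passed without the second array with both stimuli (log2 0.27). Under quantile normalization Gbp9 was called lower (log2 -0.21).

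Both stimuli together gave less than the sum of their separate log2 changes. Adding log2 changes multiplies folds, so this holds on the log2 scale. Gbp11 rose 12.9-fold with both stimuli, 8.45-fold with anti-CD3 and 4.0-fold with IFN-4a. With both stimuli it was thus not below the sum of its separate folds. The interaction, which subtracts the IFN-4a change of resting cells from that of stimulated cells, was below 0 and past the threshold for 8 of the 10 genes, where 0.591% of all probe sets were lower in this way. The difference was -2.56 for Gbp10 (SE 0.12), -2.45 for Gbp5 (SE 0.14), -1.94 for Gbp7, -1.71 for Gbp4, -1.43 for Gbp3, -1.42 for Gbp8, -1.39 for Gbp11 and -1.14 for Gbp9. For Gbp10 the separate log2 changes summed to 5.81 and the change with both was 3.25. For Gbp9 they summed to 3.08 and the change with both was 1.94. Gbp6 at -0.35 (-0.62 to -0.09) and Gbp2b at -0.30 (-0.61 to 0.01) did not pass. The trait was not particular to Gbp genes. The immunity-related GTPase genes Iigp1 (-3.96), Igtp (-2.34), Irgm1 (-2.07) and Irgm2 (-1.95) were also lower in this way. They were 4 of the 16 probe sets of a list of genes that help place GBPs on vacuoles, and 0 were higher.

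**Figure D4:**
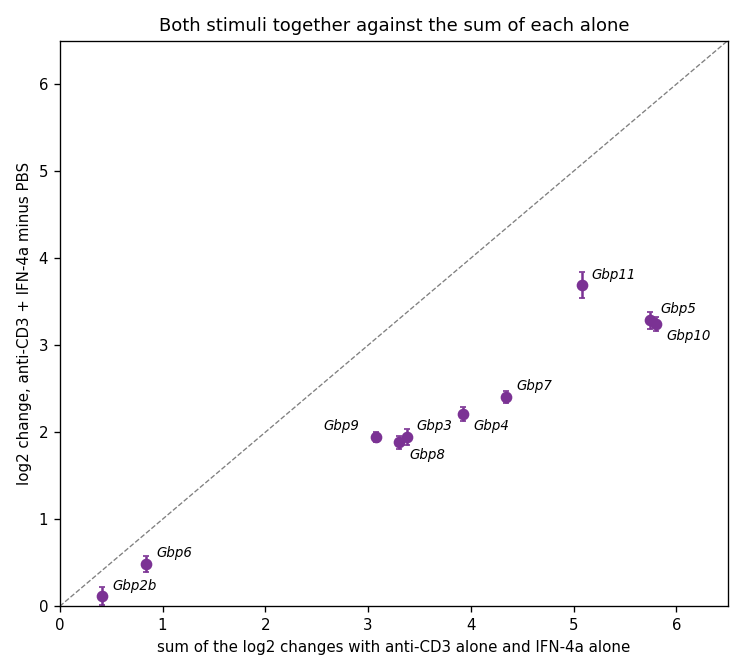
Log2 change from PBS with both stimuli (vertical axis, with its standard error) against the sum of the log2 changes with anti-CD3 alone and IFN-4a alone (horizontal axis) for each Gbp gene. The dashed line marks equal values, and all 10 genes lie below it, Gbp10 at 3.25 against a sum of 5.81.

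The size of these changes depended on quantile normalization, which was applied here to values already centred per row. Subtracting the median of each array changed no count of called Gbp genes. Under quantile normalization the log2 change with IFN-4a in resting cells was 1.98 for Gbp10, 1.70 for Gbp5, 1.43 for Gbp7, 1.17 for Gbp11, 1.04 for Gbp4 and 0.73 for Gbp8, all moved by over 1.5 times and all still higher. With anti-CD3 alone it was 1.78 for Gbp10, 1.36 for Gbp7, 1.0 for Gbp3 and 0.51 for Gbp9. The interaction was -1.51 for Gbp10, -1.47 for Gbp5, -1.14 for Gbp7, -1.01 for Gbp4, -0.90 for Gbp8 and -0.72 for Gbp9, and that of Gbp11 (-0.68) no longer passed. The order of anti-CD3 alone and IFN-4a alone was kept, with 0.95 for Gbp11, 0.83 for Gbp8, 0.48 for Gbp4 and 0.35 for Gbp5 against -0.40 for Gbp3 and -1.19 for Gbp9.

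Among the members, likeness was measured as the root mean square difference of the centred log2 values over the 12 arrays. Gbp2b and Gbp6 were nearest to each other (0.19), as were Gbp7 and Gbp4 (0.23), Gbp3 and Gbp9 (0.25), and Gbp5 and Gbp10 (0.26). Each of these 4 pairs joins a gene of chromosome 3 with a gene of chromosome 5. Gbp8 was nearest to Gbp4 (0.26), and Gbp11 stood apart from all (0.55 to its nearest, Gbp5). The pair farthest apart was Gbp5 and Gbp2b (1.42).

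Of 20616 probe sets of other named genes, the 5 most like the median profile of the 10 Gbp genes were Ccnd2, the cyclin D2 gene (0.15), Irgm2 (0.16) and Irgm1 (0.26), genes of regulatory immunity-related GTPases, Casp4, the gene of the inflammatory caspase that senses lipopolysaccharide (0.26), and B4galt5, a galactosyltransferase gene (0.26). The median over all of them was 0.93. Ccnd2 averaged 0.35 with both stimuli, 0.14 with anti-CD3, -0.17 in PBS with IFN-4a and -1.64 in PBS. Irgm2 averaged 0.20, -0.07, 0.16 and -2.07 in the same groups. Likeness over 4 conditions says nothing of shared control.

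Genes around the Gbp proteins were counted from 4 lists, also put together with earlier results of these data known. In the route from interferon receptors to IRF factors, 17 of 18 genes were measured by 19 probe sets. In resting cells IFN-4a raised 7 of these (4.17% of all probe sets rose) and lowered 1 (8.08% of all probe sets were lower). In stimulated cells it raised 5 (1.97% of all probe sets rose). The largest changes in resting cells were Usp18 at 4.76, a brake on the type I receptor, Stat2 at 2.20, Irf9 at 1.76 and Irf1 at 0.70, and the probe set that fell was that of Ifngr2 (-0.41), a chain of the interferon gamma receptor. In stimulated cells Usp18 rose by 3.47, Stat2 by 1.53, Ifng by 1.18 and Irf9 by 0.66, while Irf1 stood at -0.06 (not past the threshold).

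Anti-CD3 without IFN-4a raised 10 of those 19 probe sets (13.9% of all probe sets rose) and lowered 6 (17.5% of all probe sets were lower). Ifng, the interferon gamma gene, rose by 3.93, and Irf8 by 3.61 on 1 probe set and by 0.65 on another. Irf1 and Usp18 rose by 1.14 each, Irf9 by 0.83 and Stat2 by 0.59. Among those that fell were the receptor genes Ifnar1 (-0.64), Ifnar2 (-0.28), Ifngr1 (-0.60) and Ifngr2 (-0.97). Ifng stood at 0.17 with IFN-4a in resting cells, not past the threshold, and its part in any Gbp value was not tested.

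A further list held immunity-related GTPases, ATG8 family genes and ATG8 conjugation genes, which help place GBPs on vacuoles, with Sqstm1 and Ubqln2 beside them. Of its 17 genes, 15 were measured by 16 probe sets. In resting cells IFN-4a raised 4 of the 16 (4.17% of all probe sets rose), all of them GTPase genes. They were Iigp1 (4.32), Igtp (2.39), Irgm1 (2.35) and Irgm2 (2.22). IFN-4a lowered 1, Ubqln2 (-0.25), where 8.08% of all probe sets were lower. The count of lowered probe sets was 0 when the second PBS with IFN-4a array, or the second or the third PBS array, was left out. The conjugation genes Atg3, Atg5, Atg7, Atg12 and Atg16l1 lay between -0.19 and 0.09, none past the threshold. In stimulated cells Iigp1 rose by 0.36 and Irgm2 by 0.28, a count of 2 (1.97% of all probe sets rose). That count was 0 without the first or the third array with both stimuli or without the first or the second anti-CD3 array. It was 1 without the remaining array of either group. Irgm1 stood at 0.29 and Gabarapl1 at -0.28, not past the threshold. Anti-CD3 without IFN-4a raised 7 of the 16 (13.9% of all probe sets rose), Iigp1 by 4.46 and Igtp by 2.54 among them. It lowered 6 (17.5% of all probe sets were lower), Map1lc3b by the most (-0.81).

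Of 10 probe sets for the 9 inflammasome genes, IFN-4a raised 4 in resting cells, Casp4 by 1.59, Casp1 by 0.70, Gsdmd by 0.43 and Nlrp3 by 0.19, with Aim2 at -0.21 (not past the threshold). That count, where 4.17% of all probe sets rose, was 3 under most alternatives, quantile normalization and leaving out any array but the second with both stimuli among them. In stimulated cells, where 1.97% of all probe sets rose, IFN-4a raised Casp4 by 0.69 and Gsdmd by 0.30, with Casp1 at 0.27 and Aim2 at -0.15. A further Gsdmd probe set did not pass (0.05 in resting and 0.19 in stimulated cells). The last list held 6 prenylation genes, whose enzymes attach the lipid anchor that some GBPs carry. In resting cells IFN-4a raised 1 of the 6, Pggt1b by 0.24 (4.17% of all probe sets rose). Rce1 stood at -0.21, Fnta at -0.18 and Fntb at -0.08, none past the threshold. The count was 0 when the second PBS with IFN-4a array was left out. By limma 0 of 6 passed in stimulated cells, and 3 had an unadjusted p under 0.05, all lower (Fntb at -0.25, Fnta at -0.18 and Zmpste24 at -0.16). The share of all probe sets under that unadjusted threshold was not counted, so nothing is read from the 3.

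The arrays themselves had medians from -0.0157 to 0.0165, and no array was a copy of another. The lowest correlation across probe sets was 0.608 between arrays of 1 group, and the highest between groups was 0.527. All 5 probe sets of CD8 T cell markers (Cd8a, Cd8b1, Cd3e, Cd3d and Cd3g) had every readable array on the steps described above. None of the 24 marker probe sets of other lineages did (myeloid and NK cells, B cells, CD4 T cells, granulocytes, and erythroid cells with platelets). The mean centred value of the 9 myeloid probe sets, a cell type that expresses Gbp genes strongly, lay between -0.06 and 0.07 with both stimuli, between -0.08 and 0.08 with anti-CD3, between -0.01 and 0.06 in PBS with IFN-4a and between -0.06 and -0.0020 in PBS, ranges that overlapped. None of those 9 passed with IFN-4a in resting cells by limma (3 had an unadjusted p under 0.05, all higher). The share of all probe sets under that unadjusted threshold was not counted. With anti-CD3 alone, where 13.9% of all probe sets rose and 17.5% fell, Itgax of the myeloid list rose by 0.56. In the same comparison Cd79b of the B cell list (-0.69), Klre1 of the NK cell list (-0.25) and 3 of the 5 CD8 T cell markers fell. Their part in the Gbp values was not tested.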

How the data were processed

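RNA of 12 single-colour arrays was measured at 6 h in 4 groups of 3, grouped by the labels' titles. The deposited log2 values were centred per row by the authors, as the values show (largest absolute row median 5e-07); the sources used here give no log base, normalization, summarization or software, so folds assume log2. Arrays give no count depth, and their number limits the precision. Of 33793 rows, 23521 had 1 gene symbol in the platform annotation, 1814 had several and 8458 had none. All 10 member symbols matched RefSeq (GRCm38.p6) by Entrez identifier. limma 3.58.1 in R 4.3.3 was fitted to the 23521 rows, each tested, with a mean per group over 12 arrays and no covariate (8 residual and 4.95 prior degrees of freedom), for 7 comparisons, with Benjamini-Hochberg adjustment within each and calls under 0.05; the code was tested on simulated data. Every member was named. Other genes named were the 5 most alike, passing over predicted genes, and of each list the 4 largest IFN-4a changes in each state, with Ifng and Irf1; further list genes were named after their values were seen. Members and lists were chosen with earlier results of these data known. Alternatives were quantile normalization, centring of arrays, array weights, a robust prior, only the groups compared, all rows, the mean of a gene's rows, a replicate block and leaving out each array. Every column of values was used (0 left out). 1 further promoter motif searched is not reported here.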

Additional observations from a re-analysis of the deposited data

Results flagged for a closer look

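For 8 Gbp genes the change with IFN-4a differed between stimulated and resting cells in the test of the difference itself. All 8 were lower in stimulated cells, where 0.591% of all probe sets were lower in this way. The log2 difference, stimulated minus resting, was -2.56 for Gbp10, -2.45 for Gbp5, -1.94 for Gbp7, -1.71 for Gbp4, -1.43 for Gbp3, -1.42 for Gbp8, -1.39 for Gbp11 and -1.14 for Gbp9. The members were chosen with these groups known, so this is a description. Under quantile normalization the difference of Gbp11 (-0.68) no longer passed.

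A probe set annotated with several symbols, a Gbp symbol among them, was left out of the family because its signal cannot be given to a single gene. It averaged 0.21 with both stimuli, 0.26 with anti-CD3, -0.28 in PBS with IFN-4a and -2.76 in PBS, a log2 difference of 2.47 between PBS with IFN-4a and PBS, and its arrays in the treated groups all lay above those of PBS.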

How the results depend on the processing

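Of 70 results (10 genes in 7 comparisons), 51 kept their direction and their side of the threshold under every alternative that was run. Gbp genes raised by IFN-4a in stimulated cells numbered 4, and 2 to 5 with 1 array left out. Genes lower with anti-CD3 alone than with IFN-4a alone numbered 2, but 4 with array weights and 4 with only the groups compared, and 1 to 3 with 1 array left out. With quantile normalization 1 gene was lower with anti-CD3 in the presence of IFN-4a, against 0 otherwise. Direction turned only for differences near 0 that did not pass: Gbp2b between anti-CD3 alone and IFN-4a alone (-0.0428 with array weights, -0.0442 to 0.0878 with 1 array left out), Gbp4 with IFN-4a in stimulated cells (-0.0318 to 0.0475), and Gbp3 (-0.0282 to 0.1609) and Gbp6 (-0.1185 to 0.0462) with anti-CD3 in the presence of IFN-4a. The labels do not say that replicate numbers pair the arrays, and the deviations met the rule for pairing (every pair above 0.1) between anti-CD3 and PBS and between both stimuli and PBS but not between the other groups: 11 of 18 same-numbered pairs had deviations correlated above 0.1 (-0.040 to 0.297), and 10 of 12 arrays were closest to their own number, a hint from the data and not the design. With the replicate block 49 of 70 results passed, against 50, with Gbp11 in stimulated cells (0.61) and Gbp10 with anti-CD3 in the presence of IFN-4a (0.24) no longer passing and Gbp6 between anti-CD3 alone and IFN-4a alone (-0.22) now passing. The block changed no call of a Gbp gene in the comparisons of anti-CD3, or of both stimuli, with PBS. The cause of these shifts was not tested. Centring removed what would show signal over background, beyond the steps at 8.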
